A study of Sus scrofa with 24 samples.

Results

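The genes described here encode proteins that splice pre-mRNA and form its 3′ ends: SR proteins, hnRNP proteins, proteins of the small nuclear ribonucleoproteins (snRNPs), LSM proteins, 3′ end factors and the zinc finger protein ZC3H11A. They were taken by symbol, from probe sets to which the platform annotation gives exactly 1 gene symbol. The symbol had to start with SRSF, SNRP, HNRNP, SF3A, SF3B, PRPF, CPSF or CSTF, or with LSM and a digit, or to be PAPOLA or ZC3H11A. This gave 68 genes with 108 probe sets, of 6765 genes with such a probe set on the array. Each gene was represented by its probe set with the highest mean signal over all pigs. Of the 68 genes, 66 had a mean signal at or above the filter value of 94.1 intensity units and were tested, as were 5356 of the 6765 genes. CSTF2, a subunit of the cleavage stimulation factor, and the SR protein gene SRSF12 lay below it and were not tested. By role, the 66 tested genes were 10 SR proteins, 17 hnRNP proteins, 2 U1 snRNP proteins, 9 U2 snRNP proteins and 6 Sm core proteins. A further 5 belonged to the tri-snRNP or were PRPF18, 4 were other PRPF factors, 6 were LSM proteins, 6 were 3′ end factors and 1 was ZC3H11A.

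The spliceosome removes introns in steps. The U1 snRNP binds the 5′ splice site, the U2 snRNP with its SF3A and SF3B subunits binds the branch site, and the tri-snRNP of U4, U6 and U5 then joins. Sm proteins form a ring on most of these RNAs, and LSM proteins form a like ring on U6 RNA or on mRNA that is being degraded. SR proteins mostly promote the use of nearby splice sites, hnRNP proteins often repress it, and cleavage and polyadenylation factors end the transcript and add its poly(A) tail. In skeletal muscle, alternative splicing sets the isoforms of many contractile and calcium handling proteins.

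Total RNA of longissimus dorsi muscle, a loin muscle, came from 24 crossbred pigs of Landrace, Large White and Duroc descent, with 1 Affymetrix array of porcine probe sets per pig. All pigs ate feed with 3.0% added fat. The fat was beef tallow or 1 of 3 plant oils, from coconut, olive or soybean. Allocation to the diets took place at 71 kg and about 130 days of age, and there was no group without added fat. Each fat was fed to 3 gilts (young females) and 3 barrows (castrated males), so a fat had 6 pigs and a sex 12. Pigs are called by the number in their labels, in which gilts run from 1 to 12 and barrows from 13 to 24. The sources used here give no order of processing for the arrays, so an effect of that order and the sex cannot be told apart. The pigs were housed in 24 pens of 3, with 6 pens per fat, and which pen a sampled pig came from is likewise not stated. Pigs were therefore treated as independent, and no error or p-value below allows for pens.

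Pairwise correlations between arrays lay between 0.899 and 0.941, and pigs 11, 16 and 12 correlated least with the others. The number of arrays limits the precision, since the files give no counts. The Y-linked gene EIF1AY read 3.71 to 33.0 in the 12 gilts and 1649 to 2148 in the 12 barrows, as the labels of sex require. Of 11 skeletal muscle markers listed, 8 were on the array, and the lowest signal of any of them in any pig was 14739. Markers of other cells were present too. The summed signal of 7 fibroblast and matrix genes (of 9 listed) ran from 26189 to 68334 with tallow and from 20982 to 28488 with coconut oil. It ran from 24920 to 44796 with olive oil and 25960 to 38152 with soybean oil. The sum of 4 adipocyte genes (of 6 listed) ran from 7561 to 34308, 5970 to 10295, 6450 to 35982 and 11807 to 26458 in the same order. The sum of 6 leukocyte genes (of 9 listed), with PTPRC below the filter, ran from 2629 to 6903, 1970 to 4902, 3965 to 8031 and 2292 to 6695. The ranges of 5 endothelial genes (4893 to 8487, 5167 to 7827, 6198 to 10775 and 6179 to 9462) overlapped between all fats, as did those of 2 erythrocyte genes (920 to 1129, 832 to 1066, 830 to 1305 and 776 to 1100). The part of other cell types in the results below was not tested. In bulk muscle, fewer cells of a type and less RNA per cell cannot be told apart.

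As a group these genes varied little between pigs. The residual SD of log2 signal within the 8 groups of fat and sex had a median of 0.23 over the 66 genes, against 0.32 over all 14399 tested probe sets. It was below 0.32 for 56 of the 66. Among the 1692 named genes with a mean signal between 640 and 2186, the quartiles of the 66, the median was 0.25. The SR protein gene SRSF4 had the lowest SD of the 66 genes at 0.09, and HNRNPL, an hnRNP protein, had the highest at 1.18.

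Differences below are on the log2(signal + 1) scale with their standard error, from limma's moderated test with Benjamini-Hochberg adjustment over all 14399 tested probe sets. A gene passed where the adjusted p was under 0.05. The first comparison asked which of these genes differed between barrows and gilts.

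ZC3H11A and PAPOLA were higher in barrows and PRPF39 was lower, and the other 63 genes did not pass with the probe set of highest signal. The 3 genes of 66 stand against a background of 4.83% of all tested probe sets, or 696, and of 4.82% of the 5356 named genes, taken with 1 probe set each. By direction, 2.28% of all probe sets passed as higher in barrows and 2.55% as lower, a split of 329 and 367 that became 433 and 264 after median centring of the arrays. At an unadjusted p under 0.05 there were 9 of the 66 genes, against 21.1% of all probe sets. Over the 66 genes the median difference was 0.02 and the median size of the difference 0.07, against -0.02 and 0.14 over all probe sets. ZC3H11A and PAPOLA are named singly in the rule, which was written with results of these data known, so their passing is a description and no support for a change in RNA processing genes at large. Markers of other cells overlapped between the sexes: the fibroblast and matrix sum ran from 22473 to 44796 in gilts and 20982 to 68334 in barrows, the adipocyte sum from 7526 to 35982 and 5970 to 25789, and the leukocyte sum from 2020 to 8031 and 1970 to 6903.

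ZC3H11A, a zinc finger protein that associates with the mRNA export machinery, read from 722 to 1998 in gilts, with a median of 1214. In barrows it read from 2322 to 4516, with a median of 2857. Every barrow was above every gilt, a separation found for 0.146% of all tested probe sets and for no other of the 66 genes. The difference was 1.25 ± 0.15, or 2.37-fold, with an adjusted p of 4.79e-05 (limma), and it was 15th by p-value of the 14399. Within tallow it was 1.32, within coconut oil 1.58, within olive oil 0.95 and within soybean oil 1.13, and the 3 barrows and 3 gilts did not overlap within any fat. Only 1 probe set names this gene alone, so no second probe set could be set beside it.

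PAPOLA, the canonical nuclear poly(A) polymerase, read from 592 to 1475 in gilts, with a median of 794, and from 1169 to 1853 in barrows, with a median of 1456. The sexes overlapped only through gilt 9, which at 1475 lay above the barrow median. The difference was 0.84 ± 0.13, or 1.79-fold (limma adjusted p = 0.00155). It was 0.74 within tallow, 0.94 within coconut oil, 0.89 within olive oil and 0.80 within soybean oil, the fat that gilt 9 ate.

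The array holds 4 probe sets for PAPOLA, and they differed from each other. The second by signal read from 218 to 651 in gilts and from 505 to 838 in barrows, a difference of 0.78 ± 0.14 (limma adjusted p = 0.00508). The third read from 292 to 562 in gilts and from 287 to 528 in barrows, a difference of -0.11 ± 0.11 (limma adjusted p = 0.632). The fourth read from 213 to 394 in gilts and from 275 to 399 in barrows, a difference of 0.16 ± 0.09 (limma adjusted p = 0.345). So 2 probe sets were higher in barrows by similar amounts, and for the other two the ranges of the sexes overlapped widely. Probe sets of a gene can read different stretches or isoforms of its transcripts, and which stretch each reads was not analysed here.

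**Figure D1:**
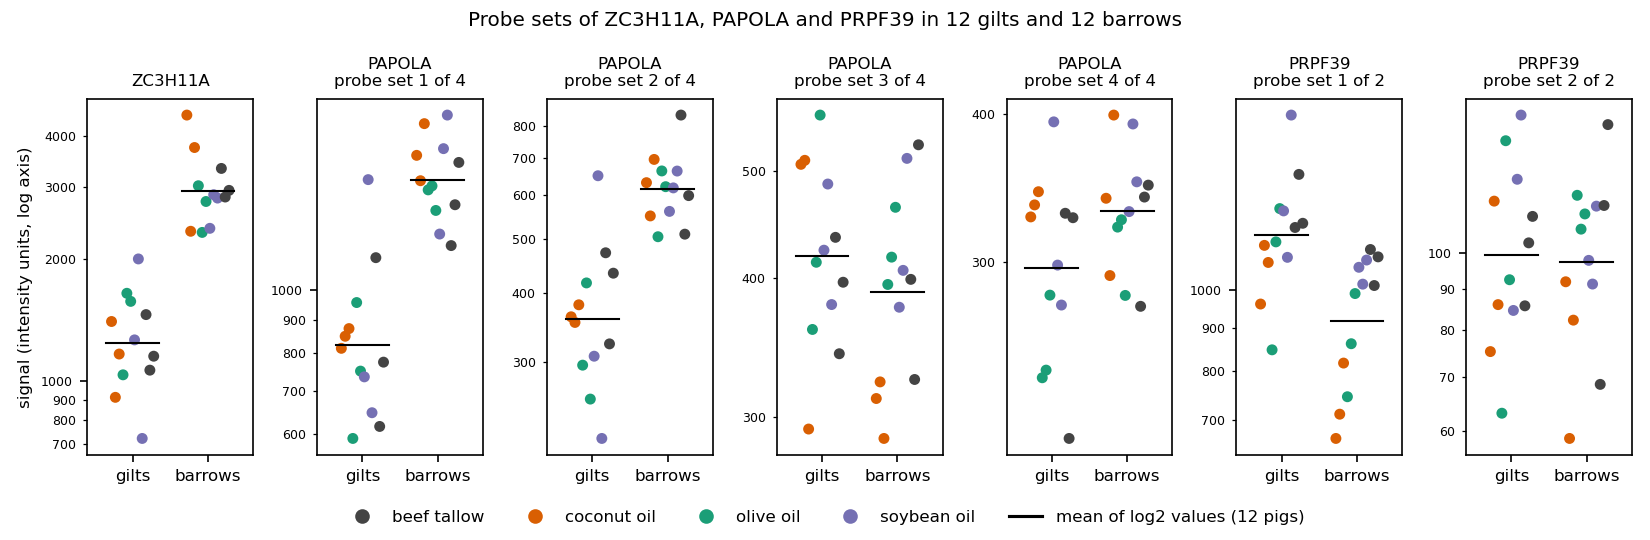
Signal (intensity units, log axis, a scale of its own per panel) of ZC3H11A, of the 4 PAPOLA probe sets and of both PRPF39 probe sets, ordered by mean signal, with 1 point per pig coloured by fat and a line at the mean of the log2 values of 12 pigs. Barrows lie above gilts for ZC3H11A without overlap and for 2 PAPOLA probe sets with gilt 9 among the barrows, while the other PAPOLA probe sets and the second of PRPF39 show the sexes mixed.

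Gilt 9 was also the highest gilt for ZC3H11A, at 1998, and for the second PAPOLA probe set, at 651. Correlations within each sex were therefore computed, 4 in all and chosen after these values were seen, with permutation p-values. The first and second PAPOLA probe sets gave Pearson's r = 0.857 over the 12 gilts (permutation p = 0.00047, adjusted 0.00188) and Spearman's rho = 0.832 (permutation p = 0.00136, adjusted 0.00544). Without pigs 2 and 9, the farthest from the median, r was 0.645. Over the 12 barrows r was 0.046 (permutation p = 0.887, adjusted 0.887) and rho 0.203 (permutation p = 0.527, adjusted 0.527), and without pigs 16 and 19 r was 0.581. PAPOLA and ZC3H11A gave r = 0.717 over the gilts (permutation p = 0.00833, adjusted 0.0167) and rho = 0.657 (permutation p = 0.0235, adjusted 0.047), with r = 0.519 without pigs 2 and 9. Over the barrows r was 0.323 (permutation p = 0.307, adjusted 0.409) and rho 0.231 (permutation p = 0.47, adjusted 0.527), with r = 0.629 without pigs 16 and 19. Since the 4 relations were chosen from these same values, their p-values are a description and no support for a link. The adjusted p was under 0.05 in gilts and not in barrows. Without 2 pigs per sex, r for PAPOLA and ZC3H11A was 0.519 in gilts and 0.629 in barrows. A difference between the sexes was not tested.

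PRPF39, a splicing factor related to yeast proteins of the U1 snRNP, read from 848 to 1613 in gilts, with a median of 1163, and from 666 to 1116 in barrows, with a median of 1001. The sexes overlapped over much of their ranges. The difference was -0.34 ± 0.09, 1.27-fold lower in barrows (limma adjusted p = 0.0293), and it was negative within each fat, at -0.22 (tallow), -0.53 (coconut), -0.31 (olive) and -0.30 (soybean). Its call was the least firm of the 3. It was lost when pig 6, 8, 14, 15 or 17 was left out, with adjusted p up to 0.0592 (limma), and when arrays were centred on their medians (limma adjusted p = 0.0576). The second PRPF39 probe set, which read from 63.1 to 148 in gilts and from 58.7 to 144 in barrows, differed by -0.03 (limma adjusted p = 0.94).

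None of the remaining roles had a gene that passed between the sexes with its probe set of highest signal. Of the 9 U2 snRNP genes, SF3B1, the branch site subunit, had the smallest p, with gilts from 2777 to 4831 and barrows from 3637 to 5449, a difference of 0.21 ± 0.08 (limma adjusted p = 0.135). Of the 10 SR protein genes it was SRSF1, the founding family member, at 1067 to 1939 in gilts and 1496 to 2405 in barrows, a difference of 0.24 ± 0.09 (limma adjusted p = 0.136). The hnRNP genes HNRNPM and HNRNPU differed by 0.24 ± 0.10 and 0.26 ± 0.12 (limma adjusted p = 0.19 and 0.203). When arrays were weighted by quality, HNRNPU passed at 0.35 (limma adjusted p = 0.0487). With these weights 1544 of all probe sets passed, against 696 without them. SRSF4 differed by 0.14 ± 0.06 (limma adjusted p = 0.206) and SNRPA, which binds U1 RNA, by 0.19 ± 0.09 (limma adjusted p = 0.229). The smallest p among LSM genes was that of LSM3, at -0.22 ± 0.13 (limma adjusted p = 0.336). In the tri-snRNP group it was that of the second-step factor PRPF18, at -0.13 ± 0.11 (limma adjusted p = 0.548), and in the Sm core that of SNRPD1, at 0.10 ± 0.10 (limma adjusted p = 0.584).

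SNRPG, also of the Sm core, differed between its probe sets. The one of higher signal differed by 0.09 ± 0.10 between barrows and gilts (limma adjusted p = 0.681). The other read from 81.5 to 236 in gilts (median 132) and from 133 to 320 in barrows (median 237), and it passed as higher in barrows, by 0.67 ± 0.17 (limma adjusted p = 0.0294). Its sexes overlapped, and its signals reached below the filter value of 94.1. Beside the second PAPOLA probe set, it was the only further probe set of the 68 genes that passed between the sexes. Of all tested probe sets, 4.83% passed.

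**Figure D2:**
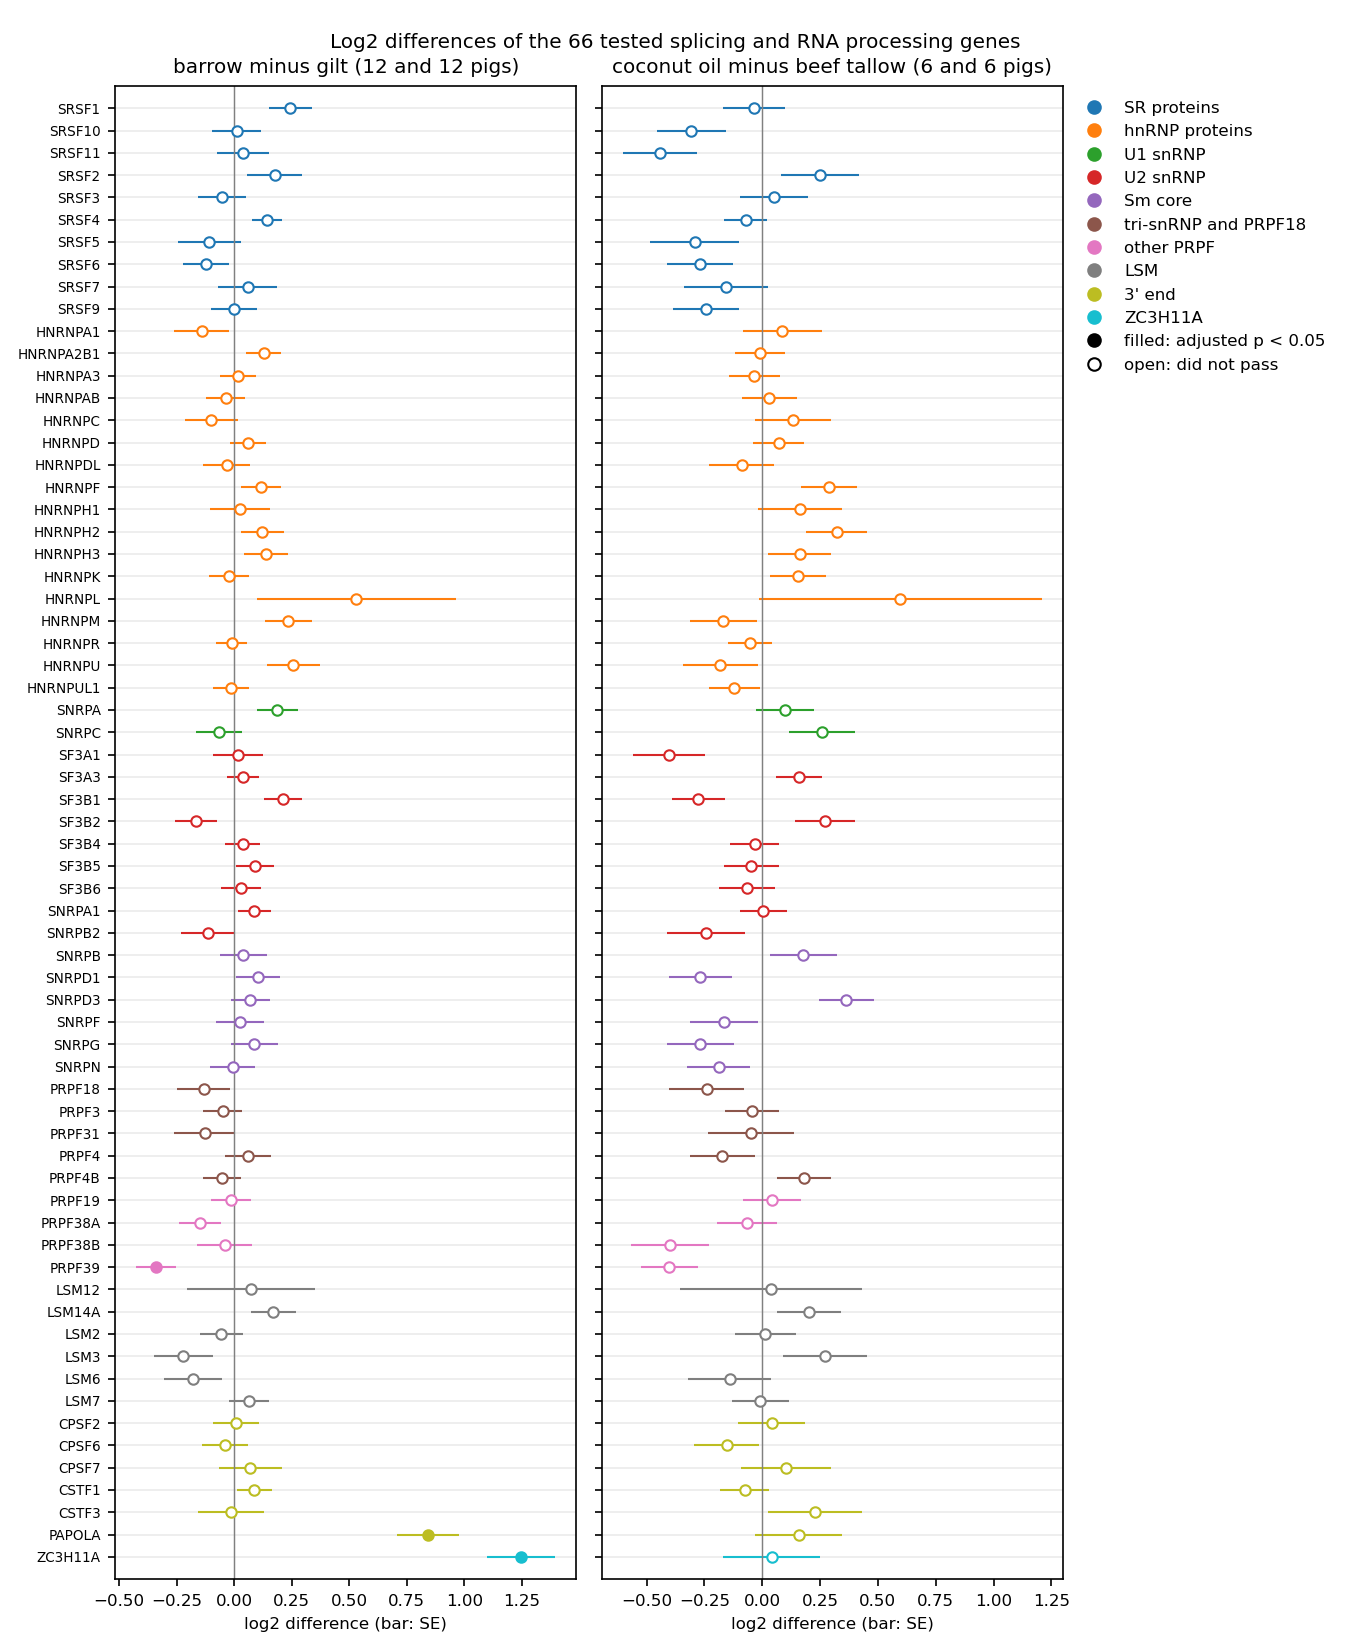
Log2 difference (horizontal axis, bar: standard error) of each of the 66 tested genes between barrows and gilts (left) and between coconut oil and beef tallow (right), coloured by role, with filled points for an adjusted p under 0.05. ZC3H11A at 1.25, PAPOLA at 0.84 and PRPF39 at -0.34 are the filled points on the left, and none is filled on the right.

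Coconut oil and beef tallow are the fats between which most probe sets differed on this array, 168 or 1.17% of those tested, a count that ran from 0 to 665 with 1 pig left out. None of the 66 genes passed, and 9 had an unadjusted p under 0.05, against 19.9% of all probe sets. The median difference was -0.03 over the 66 genes and -0.04 over all probe sets, and the median size was 0.16 against 0.20. With its probe set of highest signal, no gene of the 66 separated all 6 coconut oil pigs from all 6 tallow pigs, as 1.81% of probe sets did. PAPOLA differed by 0.16 ± 0.19 (limma adjusted p = 0.678) and ZC3H11A by 0.04 ± 0.21 (limma adjusted p = 0.936).

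The 8 genes with the smallest p, given as values since none passed, fell on both sides of 0. PRPF39 was first. It read from 1012 to 1371 with tallow (median 1151), from 666 to 1129 with coconut oil (median 890), from 746 to 1249 with olive oil (median 926) and from 1015 to 1613 with soybean oil (median 1089). All 6 coconut oil pigs lay below the tallow mean, while the ranges overlapped, and the difference was -0.40 ± 0.12 (limma adjusted p = 0.0818).

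SNRPD3, an Sm ring protein, was second. It read from 1772 to 2490 with tallow (median 1941), 2113 to 2972 with coconut oil (median 2518), 1847 to 2940 with olive oil (median 2324) and 1698 to 2697 with soybean oil (median 2046). The difference was 0.36 ± 0.12 (limma adjusted p = 0.104), and tallow pig 8, at 2490, was the only tallow pig within the coconut oil range. SF3A1, a U2 snRNP subunit, read from 658 to 1149 with tallow (median 1081) and 624 to 1016 with coconut oil (median 736), a difference of -0.40 ± 0.15 (limma adjusted p = 0.153). Here pig 8 was the lowest tallow pig, and the next was at 1026. With array weights, PRPF39, SNRPD3 and SF3A1 passed for this pair of fats (limma adjusted p = 0.0329, 0.0323 and 0.0422), as did 1281 probe sets in all.

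The others were SRSF11, described with the SR proteins below, HNRNPH2, SF3B1, PRPF38B and HNRNPF. HNRNPH2 and HNRNPF bind runs of G in pre-mRNA. HNRNPF read from 5346 to 8130 with tallow (median 6363) and from 6822 to 9584 with coconut oil (median 7708), a difference of 0.29 ± 0.12 (limma adjusted p = 0.194). HNRNPH2 read from 507 to 783 and from 655 to 819, a difference of 0.32 ± 0.13 (limma adjusted p = 0.175). SF3B1 read from 3414 to 5449 and from 2777 to 4513, a difference of -0.28 ± 0.12 (limma adjusted p = 0.191). PRPF38B, a factor of the spliceosomal B complex, read from 192 to 285 and from 132 to 257, a difference of -0.40 ± 0.17 (limma adjusted p = 0.192). In each of these 4 genes the 2 groups of 6 pigs overlapped.

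**Figure D3:**
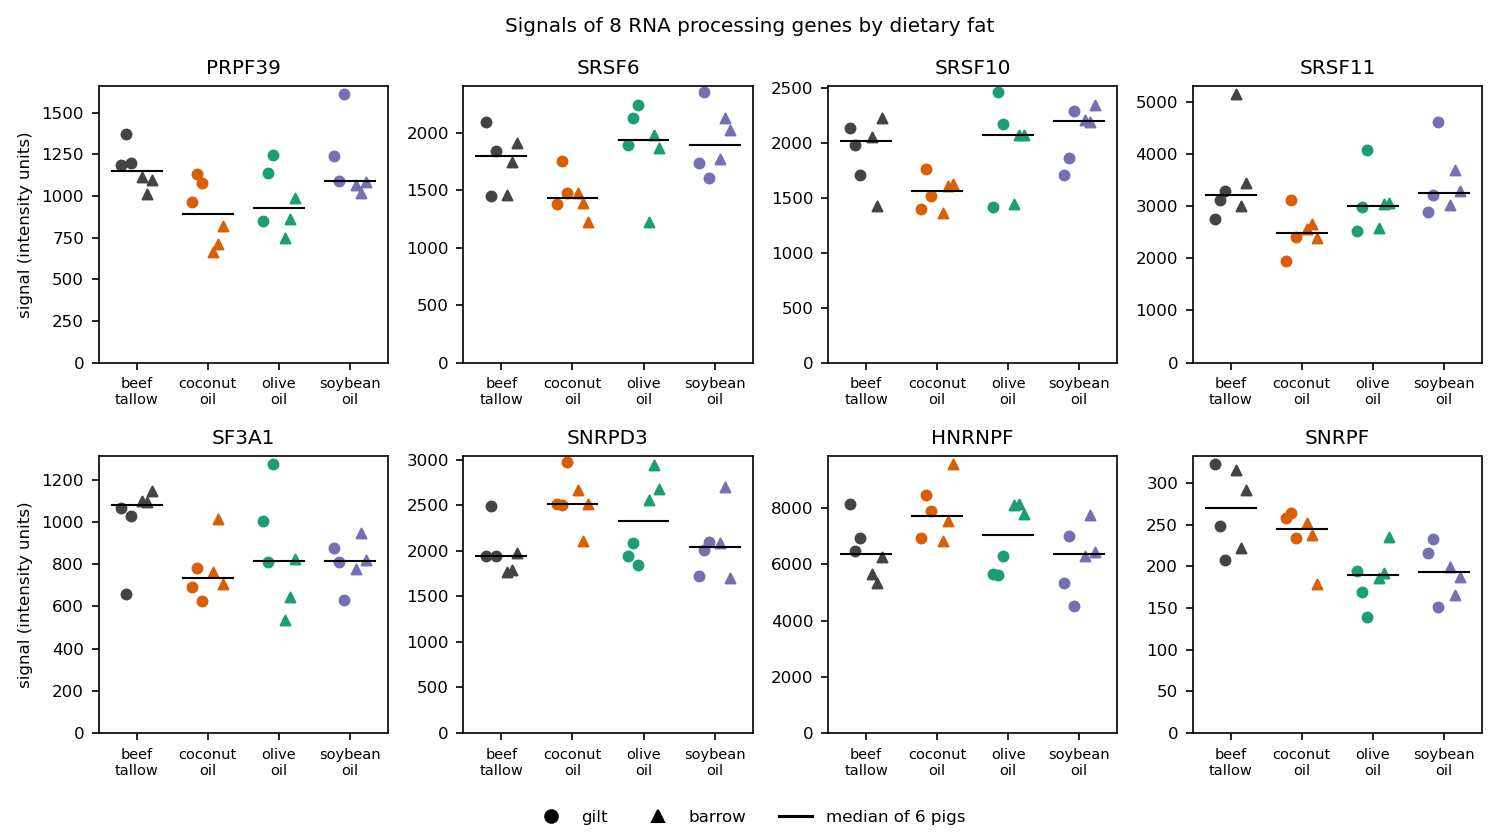
Signal (intensity units, from 0) of 8 genes by fat, with 1 point per pig (circles gilts, triangles barrows) and a line at the median of 6 pigs. For PRPF39, SRSF6, SRSF10, SRSF11 and SF3A1 the coconut oil median is the lowest of the 4, for SNRPD3 and HNRNPF it is the highest, and for SNRPF the olive and soybean oil medians, 189 and 193, lie below those of tallow and coconut oil.

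The fat comparison was also made within each sex. In gilts no probe set passed (0%), and 1 of the 66 genes had an unadjusted p under 0.05, against 4.74% of probe sets. The smallest p-values were those of HNRNPH2 at 0.41 ± 0.18, SNRPD3 at 0.33 ± 0.17 and LSM3 at 0.46 ± 0.26 (limma adjusted p = 0.977 for each). In barrows 2.1% of probe sets passed, and none of the 66 genes did with its probe set of highest signal. Of the 66, 10 had an unadjusted p under 0.05, against 21.2% of probe sets. In barrows PRPF39 read from 1012 to 1116 with tallow and from 666 to 818 with coconut oil. The difference was -0.56 ± 0.17 (limma adjusted p = 0.0818). Its 3 pigs and 3 did not overlap, but neither did those of 18 of the 66 genes, PRPF39 included. In gilts this held for 4 of the 66. The share over all probe sets was not computed for 3 pigs and 3, so neither count can be set against it. In barrows HNRNPF read from 5346 to 6263 with tallow and from 6822 to 9584 with coconut oil. The difference was 0.46 ± 0.17 (limma adjusted p = 0.136). SF3B2, a subunit of the U2 snRNP, read from 635 to 701 and from 866 to 1029, a difference of 0.48 ± 0.18 (limma adjusted p = 0.138). Median centring moved the median of all probe sets in this comparison from -0.07 to 0.14, and SF3B2 then passed, at 0.70 (limma adjusted p = 0.0438). How many of all probe sets passed in barrows after that centring was not counted. The difference between the sexes in this fat effect was tested too. No probe set passed (0%), and 1 of the 66 genes had an unadjusted p under 0.05, against 5.52%. The smallest p-values there were those of LSM6 at -0.82 ± 0.36, CSTF3 at 0.81 ± 0.40 and PRPF18 at -0.59 ± 0.32 (limma adjusted p = 0.854 for each).

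The SR proteins, which bind exonic enhancers and recruit the U1 and U2 snRNPs, leaned to lower signals with coconut oil without passing the test. Of the 10 tested, 8 had a negative difference between coconut oil and tallow, with a median of -0.20. None passed (limma), and 1 had an unadjusted p under 0.05, against 19.9% of all probe sets. Of all probe sets, 44.6% were positive in this comparison. The median was -0.16 relative to all probe sets. Centring each array on its median moved the median of all probe sets from -0.04 to 0.09, and then 6 of the 10 were negative, with a median of -0.08. With quantile normalization 9 of the 10 were negative, with a median of -0.22. Against the other oils, which share the coconut oil pigs with this comparison and so are not independent of it, 9 of 10 were positive in olive oil minus coconut oil, with a median of 0.25, and 7 of 10 in soybean oil minus coconut oil, with a median of 0.29. After median centring these were 7 and 6 of 10, and with quantile normalization 10 and 7 of 10. With neither, 49.2% of all probe sets were positive in olive oil minus coconut oil and 53.8% in soybean oil minus coconut oil. None of the 10 passed in either comparison (limma). An unadjusted p under 0.05 was found for 2 of 10 against olive oil, where 8.9% of all probe sets had one. Against soybean oil it was found for 5 of 10, where 13.1% had one.

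As a mean over the 10 SR genes of each pig's log2 deviation from the gene's mean, coconut oil pigs lay between -0.35 and 0.07, with a median of -0.19. Tallow pigs lay between -0.15 and 0.20 (median -0.01), olive oil pigs between -0.15 and 0.22 (median 0.09) and soybean oil pigs between -0.10 and 0.19 (median 0.14). The 4 groups overlapped. A lean to lower signals with coconut oil than with tallow was not particular to SR genes. Of the 4 other PRPF factors 3 were negative, with a median of -0.23, and of the 6 Sm core genes 4 were, with a median of -0.18. The medians of the U2 snRNP and tri-snRNP groups were -0.05 each, and those of the U1 snRNP, hnRNP, LSM and 3′ end groups were positive.

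SRSF11 read from 2761 to 5153 with tallow (median 3216), 1945 to 3128 with coconut oil (median 2489), 2535 to 4087 with olive oil (median 3015) and 2898 to 4618 with soybean oil (median 3257). The difference between coconut oil and tallow was -0.44 ± 0.16 (limma adjusted p = 0.131). All 5 of its probe sets were negative, from -1.15 to -0.22. The probe set at -1.15 ± 0.31 had an adjusted p of 0.0607 (limma). Its 6 coconut oil pigs did not overlap with the 6 tallow pigs, a separation found for 1.81% of all probe sets. It read from 95.1 to 241 with tallow and from 48.5 to 88.8 with coconut oil. All 6 coconut oil pigs thus lay below the filter value of 94.1. SRSF10, which can act as a splicing repressor, read from 1426 to 2224 with tallow (median 2010) and from 1358 to 1756 with coconut oil (median 1556), a difference of -0.31 ± 0.15 (limma adjusted p = 0.266). Its 4 tested probe sets all lay between -0.35 and -0.31.

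SRSF6 read from 1452 to 2093 with tallow (median 1794), 1227 to 1753 with coconut oil (median 1429), 1224 to 2240 with olive oil (median 1936) and 1606 to 2351 with soybean oil (median 1897). Of its 6 probe sets, 5 were negative between coconut oil and tallow, with a range from -0.65 to 0.03, and all 6 were positive between soybean and coconut oil, from 0.21 to 0.78. For the probe set at -0.65 ± 0.22 (limma adjusted p = 0.107), the 6 coconut oil pigs did not overlap with the 6 tallow pigs. Of all probe sets, 1.81% separated these pigs. The probe sets of SRSF9 pointed in opposite directions. They differed by -0.24 and 0.17 between coconut oil and tallow and by 0.38 and -0.29 between olive and coconut oil, so no direction can be given for the gene. SRSF2 and SRSF3 were the SR genes with positive differences between coconut oil and tallow, 0.25 ± 0.17 and 0.05 ± 0.15 (limma adjusted p = 0.427 and 0.883).

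**Figure D4:**
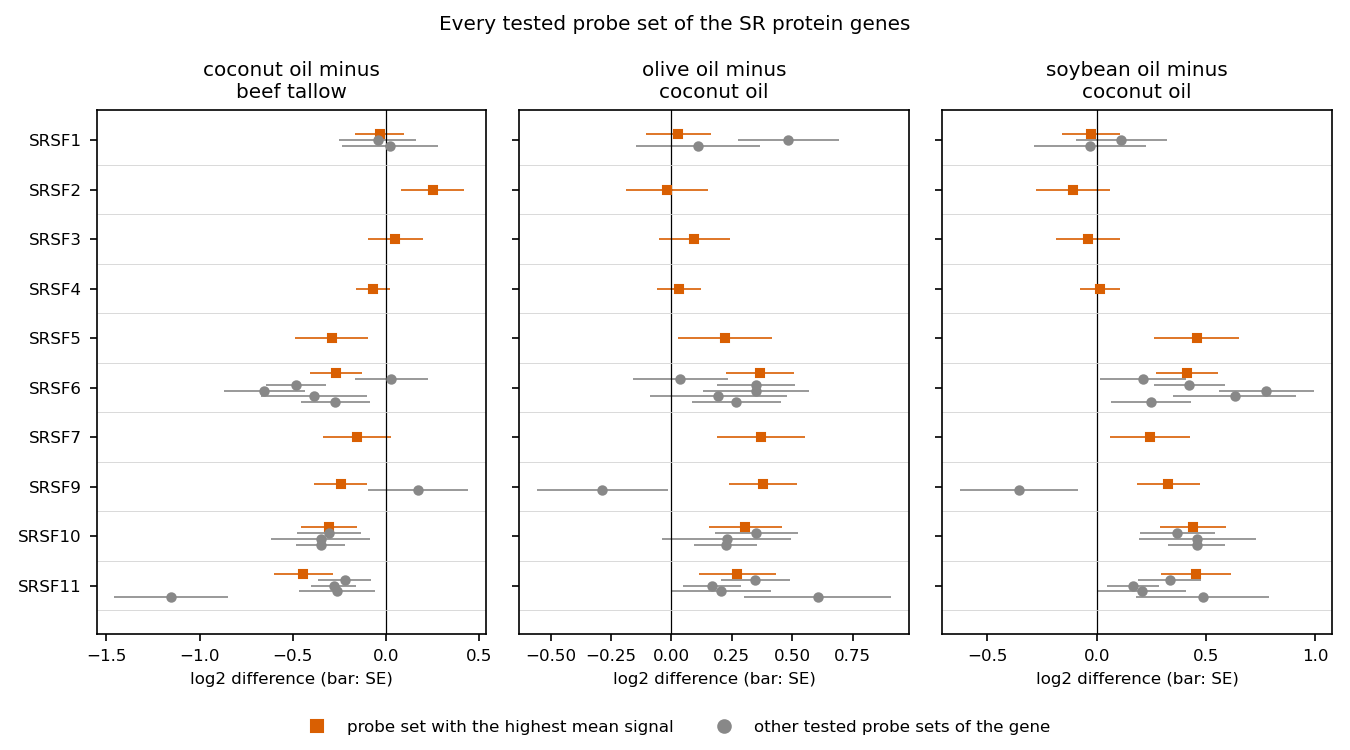
Log2 difference (horizontal axis, bar: standard error) of every tested probe set of the SR protein genes for coconut oil minus tallow, olive oil minus coconut oil and soybean oil minus coconut oil, with squares for the probe set of highest mean signal. The coconut oil pigs are shared by the 3 panels. All 5 SRSF11 and all 4 SRSF10 probe sets lie left of 0 in the first panel, and the probe sets of SRSF9 lie on opposite sides of 0 in each.

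Over the 20 genes with several tested probe sets, those of a gene shared a sign for 10 genes between coconut oil and tallow. The count was 12 between soybean and coconut oil, 15 between olive and coconut oil and 13 between barrows and gilts.

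The other pairs of fats gave no probe set that passed (0% for each). For soybean minus coconut oil 12 of the 66 genes had an unadjusted p under 0.05, against 13.1% of probe sets. None of the 66 separated the 6 pigs of each oil, as 1.07% of probe sets did. The smallest p-values were those of PRPF39 at 0.42 ± 0.12 (limma adjusted p = 0.261), SRSF6 at 0.41 ± 0.14 and SRSF10 at 0.44 ± 0.15 (limma adjusted p = 0.279 for both). For olive minus coconut oil 5 of 66 had an unadjusted p under 0.05, against 8.9%, led by SF3B1 at 0.31 ± 0.12, SRSF9 at 0.38 ± 0.14 and SRSF6 at 0.37 ± 0.14 (limma adjusted p = 0.552 for each). For soybean minus olive oil 1 of 66 did, against 3.2%, and the smallest p-values were those of PRPF39 at 0.29 ± 0.12, SNRPG at 0.29 ± 0.15 and HNRNPL at -1.14 ± 0.61 (limma adjusted p = 1 for each).

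SNRPF, an Sm ring protein, had the smallest p of the 66 genes in both oils against tallow. It read from 207 to 323 with tallow (median 271), 179 to 265 with coconut oil (median 245), 139 to 236 with olive oil (median 189) and 152 to 233 with soybean oil (median 193). The differences from tallow were -0.52 ± 0.15 for olive oil (limma adjusted p = 0.482) and -0.47 ± 0.15 for soybean oil (limma adjusted p = 1), and both share the tallow pigs. For olive oil minus tallow 2 of the 66 had an unadjusted p under 0.05, against 6.47%, and the next genes were PRPF39 at -0.27 ± 0.12 (limma adjusted p = 0.728) and SF3B2 at 0.26 ± 0.13 (limma adjusted p = 0.782). For soybean oil minus tallow 1 of 66 did, against 3.46%. The next genes there were SF3A1 at -0.31 ± 0.15 and HNRNPC at 0.27 ± 0.16 (limma adjusted p = 1 for both).

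Olive and soybean oil, rich in unsaturated fatty acids, were also set together against tallow and coconut oil. No probe set passed (0%), and 3 of the 66 genes had an unadjusted p under 0.05, against 3.89% of probe sets. SNRPF was the third of all 14399 probe sets by p-value, at -0.42 ± 0.10, and all 12 pigs on the unsaturated oils lay below the mean of the other 12. Its adjusted p was 0.987 (limma). SRSF6 and SRSF9 followed at 0.26 ± 0.10 and 0.23 ± 0.10 (limma adjusted p = 0.987 for both).

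The joint test over the 4 fats gave no probe set that passed (0%), and 6 of the 66 genes had an unadjusted p under 0.05, against 11.7%. SNRPF, PRPF39, SNRPD3 and SRSF11 had the smallest p-values (limma adjusted p = 0.247, 0.249, 0.344 and 0.382). The joint test of the difference in fat effects between the sexes likewise gave none (0%), with 4 of 66 against 6.12%, led by SF3A1, HNRNPF and SNRPD3 (limma adjusted p = 0.781 for each).

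The 17 hnRNP genes, which coat nascent transcripts, kept close to their medians in most pigs, except HNRNPL. HNRNPL, a protein that binds CA-rich RNA, read from 310 to 2009 with tallow (median 1429), 581 to 2015 with coconut oil (median 1684), 292 to 2206 with olive oil (median 1872) and 167 to 1739 with soybean oil (median 870). These wide ranges came from 7 pigs between 167 and 581, with the other 17 between 1337 and 2206. Low pigs occurred with every fat and in both sexes. HNRNPL differed by 0.60 ± 0.61 between coconut oil and tallow and by 0.53 ± 0.43 between barrows and gilts (limma adjusted p = 0.622 and 0.52). HNRNPH1 and HNRNPH2, like SNRPB and SNRPN, are close paralogs, and whether their probe sets share targets was not analysed here.

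**Figure D5:**
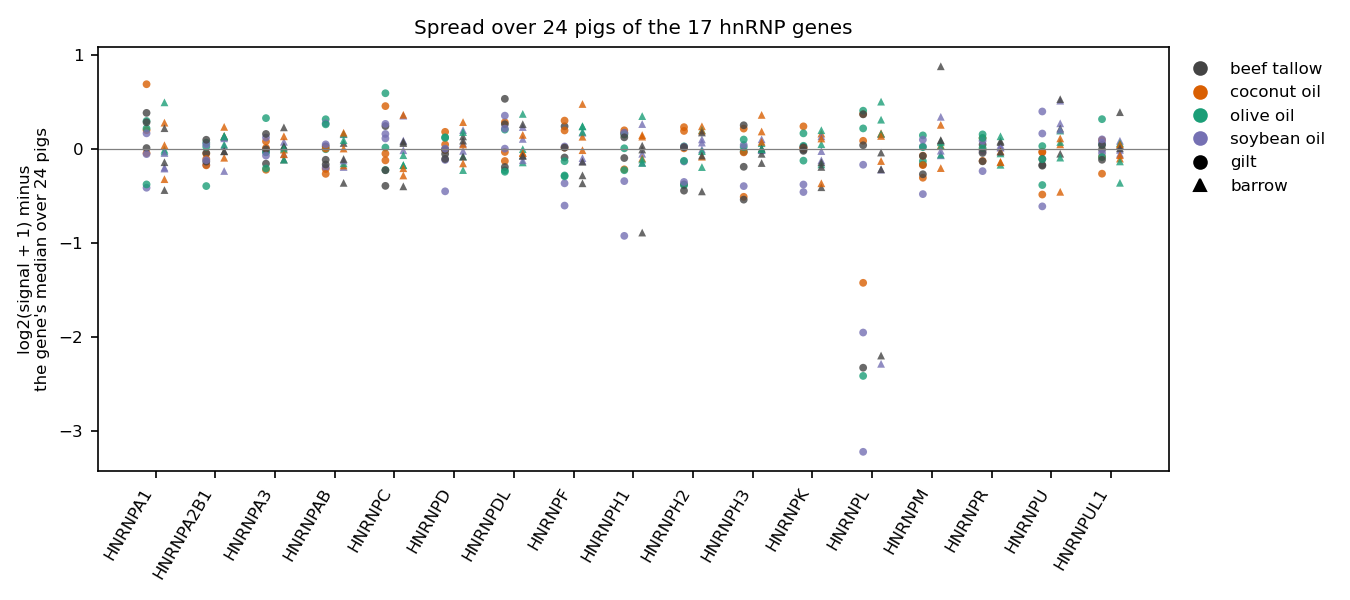
Log2(signal + 1) of each pig minus the gene's median over 24 pigs (vertical axis) for the 17 hnRNP genes, with colours for the fat, circles for gilts and triangles for barrows. HNRNPL has 7 pigs more than 1 log2 unit below its median, and the points of the other genes lie within 1 unit of theirs.

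The 3′ end factors apart from PAPOLA showed small differences. Between barrows and gilts CPSF2, CPSF6, CPSF7, CSTF1 and CSTF3 lay from -0.04 to 0.09, and between coconut oil and tallow from -0.15 to 0.23. CPSF2 belongs to the complex that recognises the polyadenylation signal, CPSF6 and CPSF7 to cleavage factor I, and CSTF1 and CSTF3 to the cleavage stimulation factor. CSTF3 read from 91.0 to 203 with tallow and 112 to 208 with coconut oil, near the filter value. The LSM genes lay from -0.14 to 0.27 between coconut oil and tallow, and LSM14A, a protein of cytoplasmic P-bodies, differed by 0.20 ± 0.14 (limma adjusted p = 0.438).

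The array also carries 4 genes named SNRNP, which the prefix SNRP leaves out. SNRNP200, SNRNP35, SNRNP40 and SNRNP48 were tested, and none passed between barrows and gilts, between coconut oil and tallow, or between either other oil and coconut oil. SNRNP40, a U5 snRNP protein, differed by -0.24 ± 0.11 between coconut oil and tallow (limma adjusted p = 0.22).

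A list of 163 other RNA processing genes was set beside these, of which 97 were on the array and 94 were tested. Between barrows and gilts 5 passed as higher in barrows and 0 as lower, where 4.83% of all probe sets passed, 2.28% as higher and 2.55% as lower. The 5 of 94 are near that share of 4.83%, and 19 of the 94 had an unadjusted p under 0.05, close to the 21.1% of all probe sets. SON, a scaffold of nuclear speckles, read from 1248 to 2867 in gilts (median 1735) and from 2273 to 3360 in barrows (median 2978), with gilt 9 the highest gilt, a difference of 0.70 ± 0.11 (limma adjusted p = 0.00163). SRRM2, its partner in speckles, read from 1341 to 2230 and from 1578 to 2551, a difference of 0.32 ± 0.09 (limma adjusted p = 0.0453). The splicing regulator KHDRBS1, also known as Sam68, read from 858 to 1318 and from 833 to 1641, a difference of 0.42 ± 0.09 (limma adjusted p = 0.0141). The exosome subunit EXOSC9 differed by 0.38 ± 0.09 and the helicase DDX39A by 0.36 ± 0.10 (limma adjusted p = 0.0189 and 0.0487). Between coconut oil and tallow none of the 94 passed, against 1.17% of all probe sets, and 12 had an unadjusted p under 0.05, against 19.9%. The smallest p was that of CLK1, a kinase that phosphorylates SR proteins, which read from 1943 to 3242 with tallow (median 2631) and 1646 to 2281 with coconut oil (median 1688), a difference of -0.54 ± 0.15 (limma adjusted p = 0.0663). In barrows alone PATL1, a decapping factor, was higher with coconut oil, by 0.82 ± 0.21 (limma adjusted p = 0.0449), the only call among the 94 where 2.1% of all probe sets passed.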

How the data were processed

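Total RNA of 24 pigs was measured on 1-colour Affymetrix arrays. The values deposited by the authors are linear probe set intensity, with no log taken. Which algorithm summarised the probes is not given in the sources used. On the values, the mean of each array after trimming 2% at each end was 500.1 to 500.2, and array medians ran from 138 to 174. No further normalization was applied.

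Control probe sets were left out, which left 23999, and 14399 with a mean signal at or above the 40th percentile (94.1) were tested. Signals were taken as log2(signal + 1) and fitted as 8 means of fat and sex, with all 24 pigs sharing 1 estimate of the spread, by lmFit and eBayes of limma (version 3.58.1, under R 4.3.3). Contrasts were two-sided and averaged over the other factor, with Benjamini-Hochberg adjustment over all tested probe sets. Permutation tests drew 100000 permutations. Symbols came from the platform annotation, by which 10069 probe sets name 1 gene, 198 several and 13732 none, and all 68 genes matched a RefSeq entry of the same symbol. No sequence was analysed here.

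The members, lists and tests were chosen with earlier results of these data known. Genes named are those that passed or, failing that, the 8 smallest p-values for coconut oil against tallow and for the sexes, the 3 smallest elsewhere, the smallest per role, PAPOLA and ZC3H11A. In the other list they are those that passed, up to 5 per contrast, or the smallest p. Other genes are named to account for their group and were chosen after their values were seen. The fit was tested on simulated data. Alternatives were the filter, normalization, pseudocount, model, spread, probe set, subsets of arrays and leaving out each pig.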

Additional observations from a re-analysis of the deposited data

Results flagged for a closer look

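For 30 named genes, each of the 4 fats forms a group of 6 pigs, 120 groups in all. In 13 of them the highest or lowest pig stood apart, with a gap to the next pig that exceeded Dixon's critical value for 6 samples, as a share of the group's range on the log2 scale. For independent, normally distributed samples, chance alone gives about 1 in 20 such groups. These groups share pigs between genes and mix the sexes, and the genes were named largely by their p-values. The 13 therefore cannot be set against that rate, and the share over all probe sets was not computed.

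In the tallow group, pig 16 was the highest for HNRNPM, at 1986 with the next at 1154 (gap 0.683 of the range), for PRPF18, at 963 with the next at 575 (0.67), and for SRSF11, at 5153 with the next at 3448 (0.644). It was the lowest for SNRPC, at 1347 with the next at 1969 (0.636). Pig 8, also on tallow, was the lowest for SF3A1, at 658 with the next at 1026 (0.797), and the highest for SNRPD3, at 2490 with the next at 1974 (0.682). Pig 16 is among the 3 arrays that correlated least with the others, and so are pigs 11 and 12.

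With coconut oil, pig 1 was lowest for HNRNPL, at 581 with the next at 1425 (0.721), and pig 23 was lowest for SNRPF, at 179 with the next at 235 (0.69). With olive oil, pig 4 was lowest for HNRNPL, at 292 with the next at 1740 (0.883), pig 12 was highest for HNRNPC, at 2392 with the next at 1603 (0.708), and pig 17 was lowest for SRSF6, at 1224 with the next at 1866 (0.697). With soybean oil, pig 11 was lowest for LSM14A, at 1449 with the next at 2625 (0.847), and pig 3 was lowest for HNRNPU, at 300.1 with the next at 514 (0.689).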

How the results depend on the processing

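Between barrows and gilts, ZC3H11A and PAPOLA passed in all 24 runs that left out 1 pig (differences of 1.15 to 1.34 and 0.78 to 0.93) and under all 12 other alternatives. For ZC3H11A, which has 1 probe set, the alternative with a second probe set could not change the result. PRPF39 passed in 19 of 24 such runs, with differences of -0.38 to -0.30, and under 8 of 12 alternatives. It was lost with no filter (limma adjusted p = 0.0668), median centring (0.0576), its second probe set (0.94) and without the 3 least correlated arrays (0.0738). The count of the 66 genes that passed between coconut oil and tallow went from 0 to 3 with array weights. In barrows alone it went from 0 to 1 with median centring, for which the count over all probe sets was not taken. The cause was not tested. Values that changed sign were those of ZC3H11A between coconut oil and tallow, which was -0.012 with quantile normalization and -0.060 to 0.177 over the runs that left out 1 pig. With the second probe set, PAPOLA was -0.087 between coconut oil and tallow, PRPF39 was 0.0052 between olive oil and tallow, and SRSF9 was -0.29 between olive and coconut oil and -0.23 between the unsaturated and saturated fats.

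The count over all probe sets depended more on the settings. Between coconut oil and tallow the 168 became 6 with no filter, 280 with the filter at the 60th percentile, 52 with quantile normalization, 0 with an additive model, 259 with a trended and robust spread, 1281 with array weights, 326 with these fats alone and 261 without the 3 least correlated arrays, and 0 to 665 with 1 pig left out. With 1 probe set per gene there were 71. It was 0 without pig 6, 8, 16 or 21 and 665 without pig 12. Between barrows and gilts the 696 became 302 with no filter, 1544 with array weights, 417 without the 3 arrays and 393 (without pig 14) to 1064 (without pig 7) with 1 pig left out, and 293 with 1 probe set per gene. Median centring moved the share of higher calls from 22.6% to 61.2% between coconut oil and tallow and from 47.3% to 62.1% between the sexes. It moved the median of all probe sets in barrows from -0.07 to 0.14 between coconut oil and tallow. A filter on mean log2 signal, added after seeing the data, gave 161 and 687. No paired analysis was possible because each pig carries a number of its own, shared with no other group.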

Other observations

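HNRNPL was the only one of the 66 genes whose 24 pigs fell into sets far apart. Pigs 1, 2, 3, 4, 11, 14 and 16 read between 167 and 581 and the other 17 between 1337 and 2206. The gap between the sets was 1.20 on the log2 scale, counting gaps with at least 4 pigs on each side. The next largest such gap among the other 65 genes was 0.28, for ZC3H11A. A gap of at least this size occurred in 22 of 14399 tested probe sets (0.153%). The 7 low pigs were 5 gilts and 2 barrows, with 2 on tallow, 1 on coconut oil, 1 on olive oil and 3 on soybean oil.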
